A study of Mus musculus with 4 samples.

Results

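The interleukin-1 (IL-1) family and its receptors were followed here through 9 genes, chosen by name from the 55403 features counted: the cytokine genes Il33, Il1a, Il1b and Il18, the receptor genes Il1rl1, Il1r1 and Il1rap, and the related genes Il1rapl1 and Il1rapl2. All 9 were found by symbol. Unique molecular identifiers (UMIs) were counted in single nuclei of mouse hippocampus in 4 libraries: 1 of wild-type (WT) mice, 2 of PS19 mice and 1 of TG_PS19 mice. PS19 mice carry MAPT with the P301S mutation, a human tau transgene of the 1N4R form driven by the Prnp promoter, from a line named with the B6;C3 prefix, and serve to model tau pathology. In TG_PS19 mice this transgene is joined by SORLA, a sorting receptor encoded by SORL1, expressed from the Rosa26 locus through a CMV/β-actin promoter element. Animals were littermates from these crosses. Their age is called aged in the series title and is not given further, tissue was pooled before lysis, and the number of animals in each pool is not given.

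Cytokines of the IL-1 family act through receptor pairs that share a signalling domain. IL-33 is a nuclear protein that is released from damaged cells and binds ST2, the product of Il1rl1. IL-1α (Il1a) and IL-1β (Il1b) bind the receptor IL1R1. Both receptors need the accessory protein IL1RAP to signal, through MYD88 and the kinases of the IRAK group to NF-κB. IL-1β and IL-18 are made as precursors that caspase-1 cuts in inflammasomes. Il1rapl1 and Il1rapl2 encode relatives of IL1RAP, of which IL1RAPL1 is known as an organiser of synapses that binds the phosphatase PTPRD. In brain, IL-33 is known from oligodendrocytes and astrocytes, and IL-1β from microglia.

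The members lie on 6 chromosomes of mouse build GRCm38. Il33 (ENSMUSG00000024810.16) is on chromosome 19 from 29925114 to 29960718 on the plus strand. Il1a and Il1b are neighbours on the minus strand of chromosome 2, from 129299610 to 129309972 and from 129364570 to 129371139. Il1r1 and Il1rl1 are both on the plus strand of chromosome 1, from 40225080 to 40317257 and from 40429570 to 40465415. Il1rapl1 spans 1375 kb and Il1rapl2 spans 1276 kb, both on chromosome X. RefSeq (GRCm38.p6) gave a start for each of the 9 members, 12 starts in all. The sequences shown are the 250 bases before the 2 starts of Il33, the member read first, and before the starts of Il1a and Il1b, neighbouring cytokine genes that were both highest in microglia. Capitals mark matches, searched on both strands, to the motif TATAAA, known from core promoters, or to TGANTCA, known as the site of the factor AP-1.
Il33, first start, chr19:29924863-29925112, plus strand: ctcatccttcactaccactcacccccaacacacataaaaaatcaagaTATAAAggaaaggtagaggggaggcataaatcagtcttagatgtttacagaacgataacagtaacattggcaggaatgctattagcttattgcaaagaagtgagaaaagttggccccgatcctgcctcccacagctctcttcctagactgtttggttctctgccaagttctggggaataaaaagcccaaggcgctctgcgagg
Il33, second start, chr19:29945540-29945789, plus strand: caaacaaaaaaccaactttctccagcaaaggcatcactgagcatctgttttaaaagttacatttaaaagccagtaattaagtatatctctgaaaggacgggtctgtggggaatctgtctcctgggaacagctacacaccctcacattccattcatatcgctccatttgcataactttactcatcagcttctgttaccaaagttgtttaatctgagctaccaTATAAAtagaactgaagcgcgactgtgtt
Il1a, chr2:129309973-129310222, minus strand: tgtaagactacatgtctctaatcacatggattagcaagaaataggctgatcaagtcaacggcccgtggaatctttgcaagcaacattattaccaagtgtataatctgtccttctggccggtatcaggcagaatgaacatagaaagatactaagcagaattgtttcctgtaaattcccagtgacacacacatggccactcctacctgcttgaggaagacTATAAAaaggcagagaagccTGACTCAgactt
Il1b, chr2:129371140-129371389, minus strand: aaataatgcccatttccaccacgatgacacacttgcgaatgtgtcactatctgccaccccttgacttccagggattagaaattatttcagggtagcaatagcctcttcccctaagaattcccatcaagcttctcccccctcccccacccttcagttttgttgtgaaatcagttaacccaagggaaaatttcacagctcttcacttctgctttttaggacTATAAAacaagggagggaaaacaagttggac
TATAAA stood 203 bases before the first Il33 start and 29 bases before the second. It stood 32 bases before the Il1a start and 31 bases before the Il1b start. Of 32851 RefSeq windows of this length, 12.4% held TATAAA and 6.75% held TGANTCA, which was found 12 bases before the Il1a start. The motifs were chosen after the sequences had been seen. Counts from the 3′ end do not tell which start was used.

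The WT library held 12762 barcodes, the PS19 libraries 4643 and 4924, and TG_PS19 9719, at median depths of 2643 to 3708.5 UMIs, highest in the PS19 libraries. After filters and removal of doublets, 29616 nuclei with 117383817 UMIs were kept. Human MAPT had 0 UMIs in WT and 339 to 462 UMIs in the libraries labelled PS19 or TG_PS19. Human SORL1 stood at 65.9 CPM, counts scaled to the depth of the library, in TG_PS19, beside 0 to 0.375 CPM elsewhere. TG_PS19 stood apart by sex makeup: 51.1% of its nuclei had Xist and no Y-linked UMI, against 0.112% to 0.227% in the other libraries, so that genotype and the sex of the pooled animals cannot be told apart by library, and values for TG_PS19 nuclei with Y-linked UMIs alone are given beside the calls on members that involve this library and as counts for the other genes. Pairs of libraries shared 5 to 32 barcodes. Nuclei fell into 32 clusters, named from marker lists as resembling a class, and 11 classes had at least 50 nuclei in every library. The 9 members were left out of the genes used for clustering. The class called oligodendrocytes here was formed by clusters 0 and 2, in which all 8 oligodendrocyte markers were raised. Cluster 4, led by Enpp6, Anln and Hapln2, had 7 of those 8 markers raised and 1880 nuclei, and stayed unnamed because Enpp6, first among its leading genes, belongs to the markers of another class.

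The members were highest in 6 of the 11 classes by their mean over libraries. Il33 and Il1rap were highest in oligodendrocytes, Il18 in astrocytes, Il1a, Il1b and Il1rl1 in microglia, Il1r1 in endothelial cells, Il1rapl1 in oligodendrocyte precursors and Il1rapl2 in inhibitory neurons. For Il1rapl2 the range of inhibitory neurons overlapped that of other excitatory neurons, which were the higher of the pair in TG_PS19. Levels are CPM, here a gene's UMIs scaled to all UMIs of a class's nuclei in a library, and are compared only within a gene. As these are nuclei, the levels are of nuclear RNA.

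**Figure D1:**
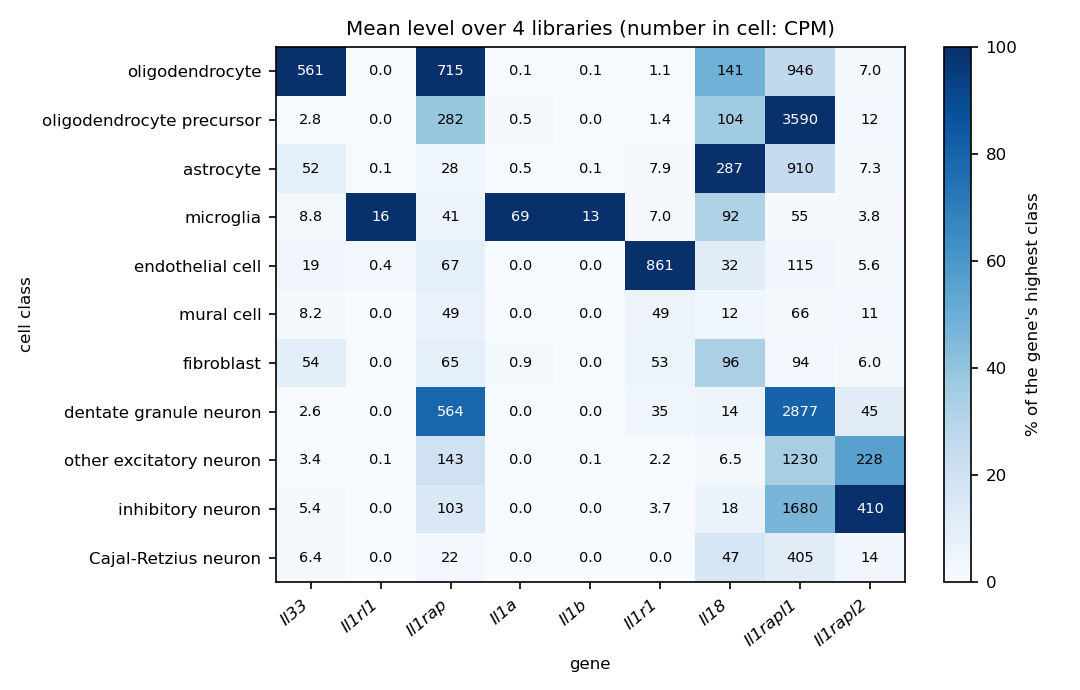
Heat map of the 9 genes (columns) in 11 cell classes (rows); the number in a cell is the mean level over the 4 libraries in CPM, and the shade is its percentage of the gene's highest class. Il33 stands at 561 CPM in oligodendrocytes and at means of 53.6 CPM or less elsewhere, while Il1rapl1 is spread over neurons and glia.

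Tests were run on UMIs summed per library within a class, with edgeR's quasi-likelihood test and Benjamini-Hochberg adjustment over all genes of the class at 0.05. The only spread between replicates came from the PS19 pair, and the lone WT and TG_PS19 libraries were assumed to vary like it. Whether the pair came from separate animals is not given, so that p-values may cover technical spread only. The low-count filter left 54 pairs of a member and a class: 11 for Il1rapl1, 10 each for Il1rap and Il18, 7 each for Il33 and Il1r1, 6 for Il1rapl2, and 1 each, microglia, for Il1a, Il1b and Il1rl1.

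In PS19 against WT, 5 of the 54 pairs (9.26%) were called, 4 higher and 1 lower, where 3.06% of all 133714 gene and class pairs were called (1.45% higher, 1.61% lower). In TG_PS19 against PS19, 7 pairs (12.96%) were called, 3 higher and 4 lower, beside 5.16% of all pairs (3.36% higher, 1.8% lower). In TG_PS19 against WT, 3 pairs (5.56%) were called, all higher, beside 2.38% (1.69% higher, 0.693% lower). The members' median log2 fold change was 0.0056, −0.06 and −0.03 in these comparisons, beside 0.0072, −0.01 and −0.0033 over all pairs tested. The comparisons share libraries, PS19 in the first pair of them, and are therefore not independent. The members were chosen with earlier results of these data known, and the 54 pairs come from only 9 genes. The shares of pairs called therefore do not test whether the family changed more than other genes. Both Il1b calls are of a pair that passed the low-count filter through the PS19 libraries alone. With library totals in place of the trimmed mean scaling, the share of all calls that were higher in TG_PS19 against PS19 was 45.9% in place of 65.1%, and in TG_PS19 against WT 48.1% in place of 70.9%. All 15 calls on members held under that scaling. By edgeR, 15, 16 and 11 pairs had an unadjusted p under 0.05. DESeq2 called 0, 2 and 1 pairs in the 3 comparisons, of which 2, both Il1rapl2 in other excitatory neurons, were among the 15. For the 2 Il1b calls and for Il1rapl1 in fibroblasts, TG_PS19 against WT, DESeq2 gave no adjusted p, and the other 10 missed its threshold.

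Il33 was read first in oligodendrocytes, where its level was highest, and it was lower there in TG_PS19 than in PS19. It stood at 544 CPM in WT (95% Poisson interval 524 to 565), 639.8 CPM (614 to 667) for PS19 replicate 1, 635 CPM (612 to 660.0) for PS19 replicate 2, and 424 CPM (406 to 443) for TG_PS19, from 2037 to 2835 UMIs. Both PS19 libraries were above WT and TG_PS19 was below all of the others. Il33 UMIs were found in 54.9% of WT, 63.1% and 67.9% of PS19 and 46.4% of TG_PS19 oligodendrocyte nuclei, beside 1.02% to 2.82% of microglia, taken as background for free RNA. Median depths were 1834, 2287, 2874 and 1887.5 UMIs in oligodendrocytes and 1605 to 2573.5 UMIs in microglia. Thinned to 1000 UMIs a nucleus, which left out 61, 18, 2 and 117 nuclei, the shares were 39.0%, 41.3%, 39.1% and 31.0%. At equal depth the WT and PS19 shares lay close together, and TG_PS19 lay below them.

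Il33 fell in TG_PS19 oligodendrocytes relative to PS19 by 0.54 on the log2 scale (SE 0.14, adjusted p 0.00374), from 637 and 645 CPM after scaling to 441 CPM. In PS19 against WT the log2 fold change was 0.28 (SE 0.14, adjusted p 0.271), and in TG_PS19 against WT −0.26 (SE 0.16, adjusted p 0.529), neither past the threshold. TG_PS19 nuclei with Y-linked UMIs alone had 412 CPM (378 to 449) and those with Xist alone 456 CPM (425 to 488), both below each PS19 library. In cluster 0, Il33 stood at 506 CPM in WT, 572 and 572 CPM for the PS19 pair and 397 CPM for TG_PS19. In cluster 2, which had Opalin and Il33 itself among its 10 leading genes, it stood at 598, 735, 715 and 461 CPM in the same order. These 2 clusters kept the same order of groups and held similar parts of the class, with 51.9% to 56.0% of its nuclei in cluster 0. Cluster 4 was lower and ordered in another way, at 232 CPM in WT, 191 and 202 CPM for the PS19 pair and 167 CPM for TG_PS19. Its share of kept nuclei was 4.61% for WT, 7.97% and 9.39% for the PS19 pair and 6.16% for TG_PS19. With cluster 4 counted among the oligodendrocytes, TG_PS19 against PS19 gave −0.48, which was still called. DESeq2 gave −0.54 with an adjusted p of 0.0502.

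In astrocytes the PS19 libraries were the lowest at class level. Il33 stood at 61.7 CPM in WT (56.4 to 67.4), 50.2 CPM (41.6 to 60.2) and 41.4 CPM (34.8 to 49.0) for the PS19 pair, and 55.3 CPM (49.1 to 62.1) for TG_PS19. PS19 against WT gave a log2 fold change of −0.47 (SE 0.17, adjusted p 0.0721), and TG_PS19 against PS19 gave 0.46 (SE 0.17, adjusted p 0.0774), neither past the threshold. With Y-linked TG_PS19 nuclei alone the second was 0.66 and called (adjusted p 0.0273). Cluster 1, the largest of the class, had 74.2 CPM in WT, 68.1 and 64.8 CPM for the PS19 pair and 66.9 CPM for TG_PS19, with overlapping intervals. Cluster 8, led by Gfap and Myoc, had 12.8, 30.9, 15.5 and 5.49 CPM. Cluster 8 held 13.8% of WT and 13.4% of TG_PS19 astrocytes and 37.2% and 38.0% of PS19 astrocytes, so that cluster 1 held a smaller part of the class in PS19. The 8 oligodendrocyte markers, all with UMIs, summed in astrocytes to 560.5 CPM in WT, 380.1 and 284 CPM for the PS19 pair and 490.5 CPM for TG_PS19, in the same order of groups as Il33, and their part in the result was not tested.

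The Il33 response differed between the classes by a test of the difference itself. The log2 fold change of oligodendrocytes minus that of astrocytes was 0.81 in PS19 against WT (adjusted p 1.12e-06 by edgeR), where 4.79% of all 17728 genes tested differed. It was −1.03 in TG_PS19 against PS19 (adjusted p 7.79e-09), where 2.87% of genes differed. Within clusters 0 and 1, the largest of each class, the differences were 0.39 (adjusted p 0.276) and −0.62 (adjusted p 0.0332), and DESeq2 gave 0.74 (adjusted p 0.356) and −0.98 (adjusted p 0.319). Only the second thus kept its call in the largest clusters, and neither kept it with DESeq2. These tests compare 2 classes of nuclei from the same 4 libraries.

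**Figure D2:**
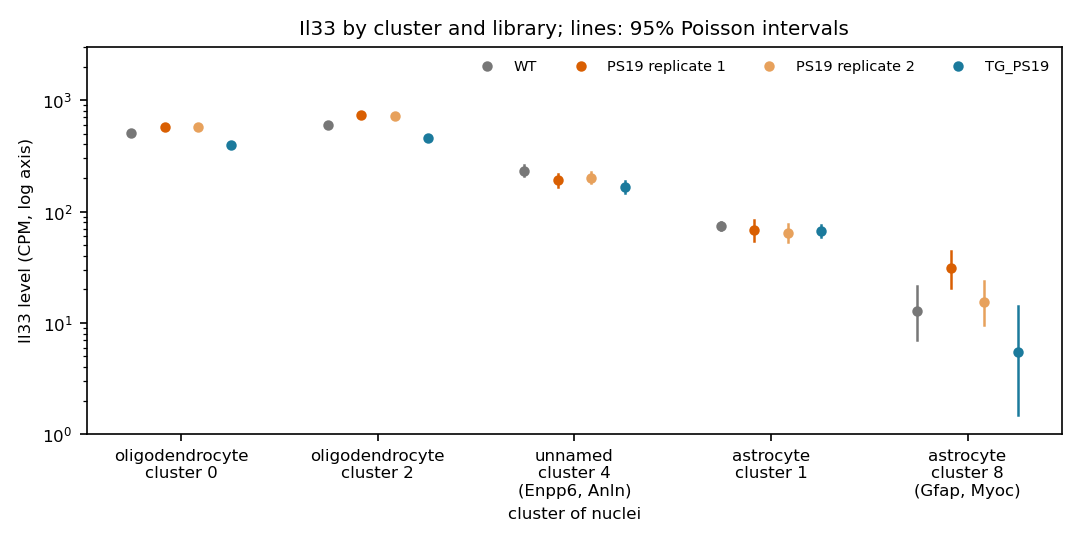
Il33 level (CPM, log axis) in 5 clusters of nuclei, 1 point for each library with its 95% Poisson interval (counting error only). TG_PS19 is the lowest library in oligodendrocyte clusters 0 and 2, whereas the libraries overlap at 64.8 to 74.2 CPM in astrocyte cluster 1.

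Fibroblasts, with 39.9 to 68.3 CPM of Il33, overlapped the astrocyte range. The other classes were lower on average, with endothelial cells at 2.90 to 39.8 CPM from 27 UMIs in all. Dentate granule neurons, with 1.52 to 4.49 CPM, and oligodendrocyte precursors, with 1.32 to 3.76 CPM, lay at or below the microglial level of 6.02 to 10.1 CPM. Over the 44 sums of a class in a library, the genes most like Il33 by Pearson's r of log2(CPM + 10) were Olfml1 (0.95), Hhip (0.94), Aspa (0.92), Gm12326 (0.90) and Add1 (0.89). Aspa encodes aspartoacylase, an oligodendrocyte enzyme. These r values describe sums that share libraries and depth.

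Il1rl1, the gene of the IL-33 receptor ST2, was close to the limit of detection. Microglia held 19 UMIs in WT, 9 and 21 in PS19 and 4 in TG_PS19, or 19.1, 14.1, 26.5 and 5.50 CPM. TG_PS19 was lowest, and the PS19 libraries lay on either side of WT. From PS19 to TG_PS19 the fitted log2 change was −1.81 (SE 0.76, adjusted p 0.126), and from WT to PS19 it was 0.12 (SE 0.53, adjusted p 0.944). Oligodendrocytes and 6 other tested classes had 0 Il1rl1 UMIs, which in the 8001 oligodendrocyte nuclei allows a share with a UMI of up to 0.0375%, and 1 UMI each was found in astrocytes, endothelial cells and other excitatory neurons. Outside the tested classes, 6 WT UMIs were found in 1 nucleus of a T-cell-like cluster and 5 in cluster 28, led by Mrc1 and Cd74.

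Il1rap, the shared accessory receptor, was highest in oligodendrocytes and dentate granule neurons. In oligodendrocytes it stood at 638 CPM in WT, 709 and 765 CPM for the PS19 pair and 748 CPM for TG_PS19. WT was lowest and the other libraries lay between 709 and 765 CPM. Within TG_PS19, nuclei with Y-linked UMIs alone had 703 CPM (658 to 750) and those with Xist alone 815 CPM (774 to 858). The log2 fold changes were 0.26 (SE 0.14, adjusted p 0.337), 0.07 (SE 0.14, adjusted p 0.854) and 0.33 (SE 0.16, adjusted p 0.358) in PS19 against WT, TG_PS19 against PS19 and TG_PS19 against WT. Dentate granule neurons came next with 519 to 598 CPM and oligodendrocyte precursors with 240.2 to 313 CPM, and the ranges of these first 3 classes did not overlap. Of the 10 classes tested, none was called in any comparison by edgeR or DESeq2, with an unadjusted edgeR p under 0.05 in 1, 2 and 1 of them. With doublets kept, Il1rap was called lower in PS19 than in WT and higher in TG_PS19 than in PS19, in fibroblasts (−0.88 and 0.86) and in microglia (−0.82 and 1.23). An antisense gene, Gm20319, lies across 15672 bases of Il1rap with 8892 UMIs of its own, and it was the third most like Il1rap in its pattern (r 0.89), after Tmeff2 (0.91) and Lrrn1 (0.91). Among oligodendrocyte nuclei with Il33 UMIs, 988 of 1493 for WT, 691 of 915 and 786 of 945 for the PS19 pair and 840 of 1133 for TG_PS19 also had Il1rap UMIs. Over all oligodendrocyte nuclei, Il1rap UMIs were found in 1703 of 2720, 1080 of 1450, 1124 of 1391 and 1712 of 2440 in the same order. The shares among nuclei with Il33 lay close to these, depth was not made equal, and an association was not tested.

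Il1a and Il1b, the IL-1 cytokine genes, were read in microglia, whose makeup differed between libraries. Cluster 7 held 98.3% of WT and 99.5% of TG_PS19 microglia but 41.9% and 40.1% of PS19 microglia, and cluster 15, led by Ly86 and Apobec1, held the rest. By CPM, Il1b rose in PS19. It had 3 UMIs in WT, 11 and 24 in PS19 and 1 in TG_PS19, or 3.01, 17.2, 30.3 and 1.37 CPM. Both PS19 libraries were above both others, though the intervals of WT (0.620 to 8.79) and PS19 replicate 1 (8.60 to 30.8) met at their ends. Fitted on the log2 scale, the change was 2.94 (SE 0.87, adjusted p 0.0126) for PS19 relative to WT and −3.91 (SE 1.13, adjusted p 0.00922) for TG_PS19 relative to PS19. At such counts the fitted sizes depend on the fit. Il1b passed the low-count filter through the PS19 libraries alone, where it was high, so its place among the tested pairs was not independent of these calls. By counts, PS19 stood 8.13 times above WT (95% exact interval 2.56 to 41.3) and 17.8 times above TG_PS19 (2.99 to 723), counting error only. TG_PS19 was also limited to nuclei that had Y-linked UMIs without Xist, 79 nuclei with 1 Il1b UMI. The fitted log2 change from PS19 to TG_PS19 was then −1.73 (adjusted p 0.592). Of the 39 UMIs, 34 were in cluster 15, at 26.9 and 44.8 CPM in PS19, and the cluster had 10 WT and 2 TG_PS19 nuclei with 0 Il1b UMIs, too few to compare. In cluster 7, Il1b had 3, 0, 1 and 1 UMIs.

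Il1a gave another picture in the same nuclei. It stood at 57.2 CPM in WT (43.3 to 74.1), 72.0 CPM (52.7 to 96.1) and 75.8 CPM (57.8 to 97.6) for the PS19 pair, and 72.8 CPM (54.5 to 95.2) for TG_PS19. All 4 intervals overlapped. By edgeR, the log2 fold change from WT to PS19 was 0.37 (SE 0.27, adjusted p 0.524) and that from PS19 to TG_PS19 was 0.06 (SE 0.28, adjusted p 0.949). In cluster 7 the level ran from 55.4 to 78.1 CPM over the 4 libraries, and in cluster 15 it was 68.6 and 81.9 CPM in PS19. A transcript on the other strand, Gm14023, overlaps 8217 bases of Il1a with 488 UMIs against 268. Of the 20 PS19 nuclei with Il1b UMIs, 8 also held Il1a. Over all PS19 microglia, Il1a was found in 40 of 260 and 47 of 284 nuclei. Depth was not made equal between these sets, and an association was not tested.

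**Figure D3:**
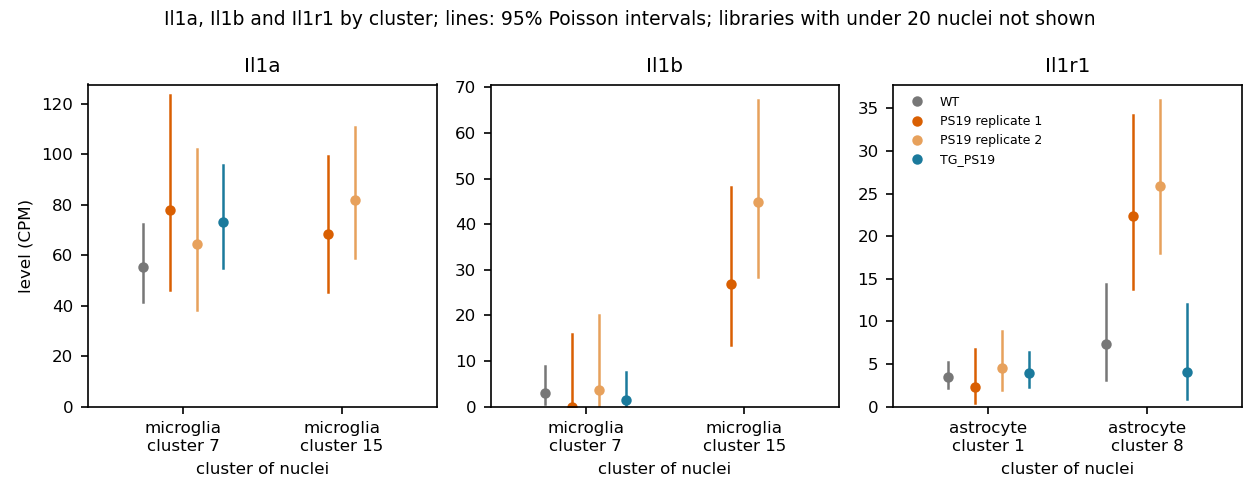
Levels (CPM) of Il1a and Il1b in microglial clusters 7 and 15 and of Il1r1 in astrocyte clusters 1 and 8, by library with 95% Poisson intervals; libraries with under 20 nuclei in a cluster are not shown. Il1b reaches 26.9 and 44.8 CPM in PS19 cluster 15, Il1a stands at 68.6 and 81.9 CPM in PS19 cluster 15 and at 55.4 to 78.1 CPM in cluster 7, and Il1r1 stands at 22.4 and 25.9 CPM in PS19 cluster 8 and at 2.30 to 4.51 CPM in cluster 1.

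Il1r1, the signalling receptor for IL-1, was highest in endothelial cells. Endothelial cells had 701 CPM in WT, 845 and 1157 CPM for the PS19 pair and 741 CPM for TG_PS19. The PS19 libraries differed from each other by more than PS19 replicate 1 did from TG_PS19. PS19 against WT gave a log2 fold change of 0.55 (SE 0.25, adjusted p 0.874), and TG_PS19 against PS19 gave −0.41 (SE 0.25, adjusted p 0.895), and neither was called. Within the class, cluster 11 had 811 to 1418 CPM, while cluster 24, led by Eln and Bmx, genes of arterial wall, had 12.9 to 47.9 CPM. Fibroblasts followed with 44.5 to 63.4 CPM and mural cells with 43.1 to 55.3 CPM. The genes most like Il1r1 were Ocln (r 0.96), which encodes the tight junction protein occludin, Foxq1 (0.94), Slco1a4 (0.93), Cavin1 (0.92) and Adgrf5 (0.92).

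In dentate granule neurons Il1r1 rose by CPM in both transgenic groups relative to WT. It stood at 24.98 CPM in WT (22.1 to 28.1), 37.8 CPM (32.2 to 44.0) and 35.4 CPM (30.7 to 40.5) for the PS19 pair, and 42.7 CPM (38.3 to 47.4) for TG_PS19. WT was below the intervals of all 3 others. Thinned to equal depth, the shares of nuclei with Il1r1 UMIs were 2.44% in WT, 3.73% and 2.19% in PS19 and 3.82% in TG_PS19. By these shares PS19 replicate 2 was below WT, and the intervals of all libraries overlapped. Relative to WT the log2 fold change was 0.56 (SE 0.15, adjusted p 0.0141) for PS19 and 0.89 (SE 0.17, adjusted p 1.19e-05) for TG_PS19, whereas TG_PS19 against PS19 gave 0.32 (SE 0.15, adjusted p 0.178). The first call was lost with relative log expression scaling (adjusted p 0.12), without the low-count filter (0.0597), at clustering resolution 2 (0.157) and with DESeq2 (1.00), which also gave 0.218 for TG_PS19 against WT. TG_PS19 nuclei with Y-linked UMIs alone had 41.5 CPM and those with Xist alone 42.4 CPM. The 7 endothelial markers, all with UMIs, summed in these neurons to 22.6 CPM in WT, 31.1 and 17.8 CPM for the PS19 pair and 17.8 CPM for TG_PS19, and their part in the result was not tested.

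In astrocytes Il1r1 was scarce, rose in PS19 relative to WT and fell in TG_PS19 relative to PS19. It had 31 UMIs in WT, 24 and 45 in PS19 and 21 in TG_PS19, or 3.88, 10.2, 13.6 and 4.01 CPM. Both PS19 libraries were above both others. Fitted on the log2 scale, the change was 1.61 (SE 0.36, adjusted p 3.16e-04) for PS19 relative to WT and −1.42 (SE 0.39, adjusted p 0.00547) for TG_PS19 relative to PS19. In cluster 8 it stood at 7.32 CPM in WT, 22.4 and 25.9 CPM for the PS19 pair and 4.12 CPM for TG_PS19, and in cluster 1 at 2.30 to 4.51 CPM. In cluster 1 alone the log2 fold changes were 0.09 and 0.28, neither called. With Y-linked TG_PS19 nuclei alone the second was −1.11 (adjusted p 0.227), and DESeq2 called neither (adjusted p 1.00 and 0.892). The 7 endothelial markers summed to 35.2 CPM in WT, 30.6 and 27.2 CPM for the PS19 pair and 22.7 CPM for TG_PS19 astrocytes, all 7 with UMIs. Their part in the result was not tested.

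Il18, whose product needs caspase-1 cutting, was highest in astrocytes. It stood at 307 CPM in WT, 292 and 269 CPM for the PS19 pair and 280.1 CPM for TG_PS19. The TG_PS19 value lay between the PS19 libraries. By edgeR, the log2 fold change from WT to PS19 was −0.16 (SE 0.13, adjusted p 0.647) and that from PS19 to TG_PS19 was 0.18 (SE 0.13, adjusted p 0.519). Oligodendrocytes followed with 127 to 155 CPM. None of the 10 classes tested was called in any comparison by edgeR or DESeq2, and 2 in each had an unadjusted edgeR p under 0.05. Il18 overlaps Tex12 on the other strand over 4507 bases, and Tex12 was the second most like gene (r 0.89), after Gm16759 (0.90). Reads of such partners cannot be told apart where the counting ignores strand, which is not given in the sources used here.

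**Figure D4:**
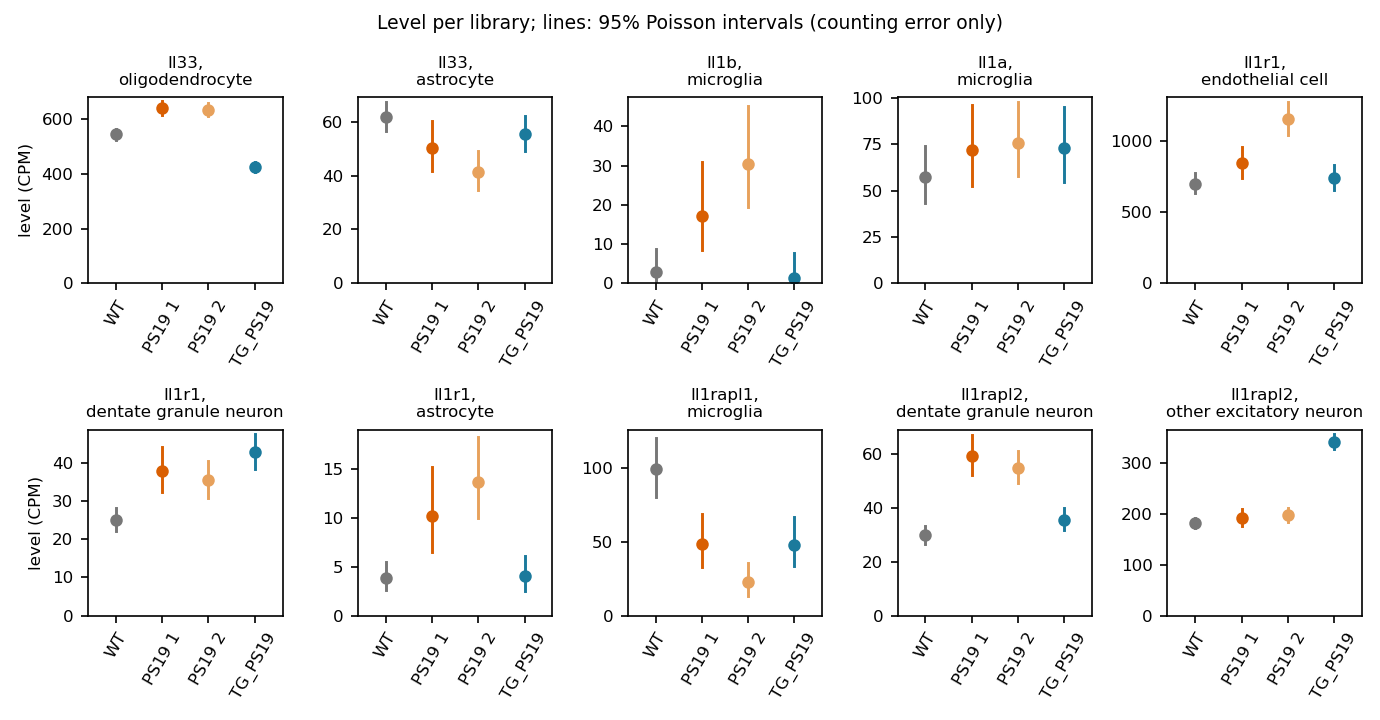
Levels (CPM, axes from 0) of 10 pairs of a gene and a class in the 4 libraries, with 95% Poisson intervals that cover counting error only. Il1rapl2 in other excitatory neurons stands at 181 to 197 CPM in WT and PS19 and at 341 CPM in TG_PS19, while Il1a in microglia overlaps in all libraries.

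Il1rapl2 changed in neurons. In other excitatory neurons, a class merged from clusters 12, 13, 17 and 21, it stood at 181 CPM in WT (171 to 192), 192 CPM (176 to 208) and 197 CPM (183 to 212) for the PS19 pair, and 341 CPM (327 to 355) for TG_PS19. By CPM, TG_PS19 was above all others, which lay together. The UMIs were clumped, which intervals for counting error do not cover. In PS19 a single nucleus held 96 of 561 in replicate 1 and 108 of 735 in replicate 2. The most was 81 of 1225 in WT and 119 of 2177 in TG_PS19. Thinned to equal depth, the shares of nuclei with Il1rapl2 UMIs were 11.0% in WT, 9.72% and 10.4% in PS19 and 14.8% in TG_PS19. By these shares TG_PS19 was highest, but its interval, 11.9% to 18.0%, overlapped those of all others. The log2 fold change was 0.90 (SE 0.12, adjusted p 1.42e-10) in TG_PS19 against PS19, 0.95 (SE 0.14, adjusted p 2.47e-08) in TG_PS19 against WT and 0.05 (SE 0.13, adjusted p 0.97) in PS19 against WT. Both were called in all 12 alternatives with a test, DESeq2 among them, and kept their direction without either PS19 library. TG_PS19 nuclei with Y-linked UMIs alone had 356 CPM (332 to 381) and those with Xist alone 341 CPM (321 to 362). Cluster 21, led by Olfm3 and Cntnap4 and with Il1rapl2 itself among its 10 leading genes, had the highest level, 892 to 949.8 CPM in the 4 libraries with overlapping intervals, and made up 11.7% of the class in WT, 11.1% and 14.1% in PS19 and 21.3% in TG_PS19. In cluster 12, where all 6 markers of CA1 pyramidal neurons were raised, Il1rapl2 stood at 95.01 CPM in WT, 92.1 and 136 CPM for the PS19 pair and 198 CPM for TG_PS19. Cluster 13 had 155, 38.6, 64.7 and 216 CPM and cluster 17 had 116, 188, 107 and 256 CPM. TG_PS19 was thus highest in clusters 12, 13 and 17, and cluster 12 alone gave 0.89 and 1.12 for its 2 comparisons, both called.

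**Figure D5:**
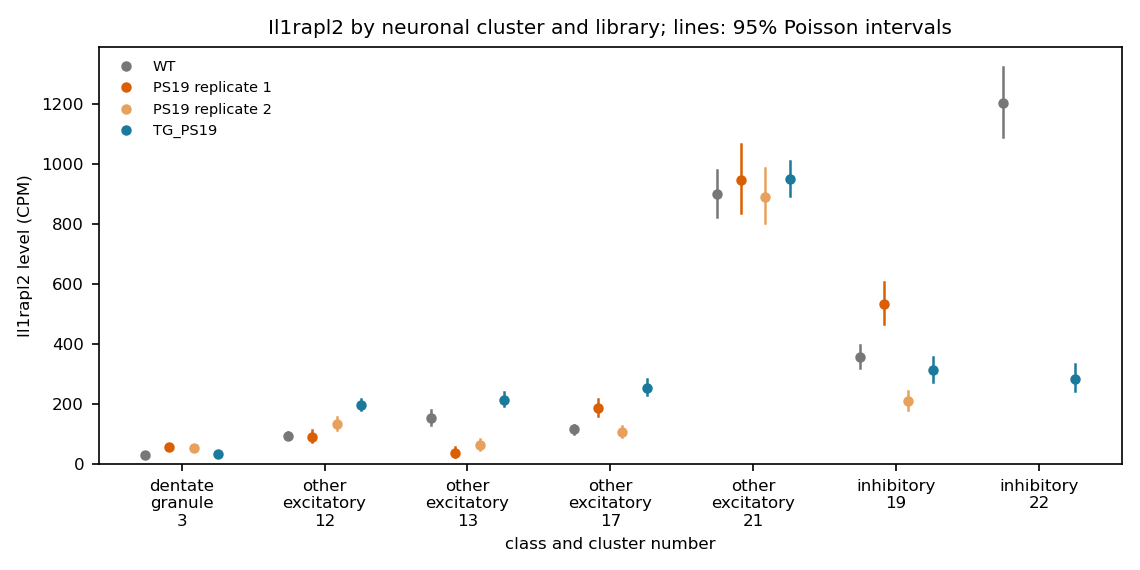
Il1rapl2 level (CPM) in 7 neuronal clusters by library, with 95% Poisson intervals; PS19 libraries with under 20 nuclei in cluster 22 are not shown. Cluster 21 stands at 892 to 949.8 CPM in all libraries, and TG_PS19 is the highest library in clusters 12, 13 and 17.

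In dentate granule neurons Il1rapl2 rose in PS19 and fell in TG_PS19 relative to PS19. It stood at 29.7 CPM in WT (26.6 to 33.1), 59.2 CPM (52.2 to 66.9) and 54.9 CPM (49.1 to 61.2) for the PS19 pair, and 35.6 CPM (31.6 to 39.9) for TG_PS19. The PS19 intervals did not overlap the others. PS19 against WT gave a log2 fold change of 0.95 (SE 0.14, adjusted p 6.94e-09), and TG_PS19 against PS19 gave −0.58 (SE 0.14, adjusted p 0.00124). The UMIs lay in few nuclei, 160 of 1601 for WT, 70 of 483 and 94 of 549 for the PS19 pair and 125 of 996 for TG_PS19, and 1 PS19 nucleus alone held 42 of its library's 257. TG_PS19 nuclei with Y-linked UMIs alone had 33.1 CPM and those with Xist alone 36.2 CPM, both below each PS19 library. Thinned to 1000 UMIs, the shares of nuclei were 2.25%, 3.93%, 3.65% and 2.01%. At resolution 2 the fall in TG_PS19 was −0.31 (adjusted p 0.315), and DESeq2 gave adjusted p values of 0.0526 and 0.38 for the 2 comparisons. Inhibitory neurons, the class with the highest mean, had 586 CPM in WT, 446 and 305 CPM for the PS19 pair and 301.1 CPM for TG_PS19. There PS19 replicate 1 had 246 UMIs in 9 nuclei and PS19 replicate 2 had 312 in 18, and no comparison was called (adjusted p 0.202 to 0.889). TG_PS19 against WT, at −0.87, was however called with library totals (−0.96, adjusted p 0.0114), relative log expression scaling (adjusted p 0.0375) and a robust prior (adjusted p 0.0186).

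Il1rapl1 was the most widely found member, tested in all 11 classes. Oligodendrocyte precursors had 3383 to 3696 CPM and dentate granule neurons 2674 to 3143 CPM. In the latter TG_PS19 against PS19 gave 0.33 (SE 0.12, adjusted p 0.0504), just outside the threshold. It was called with DESeq2 (adjusted p 0.0334), with library totals (0.0459), without the low-count filter (0.0318) and with Y-linked TG_PS19 nuclei alone (0.0194). In the precursors the log2 fold change was 0.02 (SE 0.17, adjusted p 0.994) for PS19 relative to WT and 0.15 (SE 0.17, adjusted p 0.848) for TG_PS19 relative to PS19. In oligodendrocytes it stood at 961 CPM in WT, 826 and 890.1 CPM for the PS19 pair and 1108 CPM for TG_PS19. TG_PS19 was above all others, and it rose relative to PS19 by 0.42 (SE 0.14, adjusted p 0.0414). In cluster 0 alone that change was 0.34 (adjusted p 0.2), and DESeq2 gave an adjusted p of 0.222. TG_PS19 nuclei with Y-linked UMIs alone had 1161 CPM and those with Xist alone 1032 CPM, both above each PS19 library.

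The response of Il1rapl1 also differed between oligodendrocytes and astrocytes, opposite in sign to Il33. The difference was −0.36 (adjusted p 0.00132) in PS19 against WT and 0.43 (adjusted p 1.03e-04) in TG_PS19 against PS19. DESeq2 gave −0.43 (adjusted p 0.675) and 0.48 (adjusted p 1.00), neither called. Calls in 2 other classes rested on few UMIs. In microglia it stood at 99.3 CPM in WT, 48.5 and 22.7 CPM for the PS19 pair and 48.1 CPM for TG_PS19, with 18 to 99 UMIs, and fell in PS19 against WT by 1.52 (SE 0.28, adjusted p 3.77e-06). Of the 31 UMIs in PS19 replicate 1, 18 came from 1 nucleus. Without PS19 replicate 1 the value was −2.11, without PS19 replicate 2 it was −1.03, and in cluster 7 alone −0.87 (adjusted p 0.926). The 8 oligodendrocyte markers, all with UMIs, summed in microglia to 949.7 CPM in WT, 585 and 514 CPM for the PS19 pair and 901 CPM for TG_PS19, and the 7 inhibitory neuron markers summed to 83.2 CPM in WT and 14.1 to 17.7 CPM elsewhere, with 6 of 7 found in WT, 1 and 3 in PS19 and 4 in TG_PS19. Their part in the result was not tested.

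In fibroblasts Il1rapl1 stood at 87.4 CPM in WT, 99.1 and 34.9 CPM for the PS19 pair and 156 CPM for TG_PS19, and was called higher in TG_PS19 against PS19 (1.28, SE 0.24, adjusted p 2.61e-05) and against WT (0.90, SE 0.25, adjusted p 0.0177). The PS19 libraries lay on either side of WT, and the first value was 2.19 without PS19 replicate 1 and 0.70 without PS19 replicate 2. With doublets kept the values were 0.54 and −0.57, neither called. The second call was also lost without the low-count filter (adjusted p 0.0603), with a robust prior (0.0537), with adjusted degrees of freedom (0.15) and with Y-linked TG_PS19 nuclei alone (0.293), which kept the first at 1.31 (adjusted p 0.0244).

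Genes around the members were counted by 4 lists, also chosen with earlier results of these data known. Of 22 genes next to the receptors in signalling, all were tested, in 195 pairs with a class. In PS19 against WT, 4 pairs were higher and 0 lower, 2.05% against the 3.06% of all pairs. Nfkbia, the inhibitor IκBα that NF-κB induces, accounted for 3 of them, at 1.403 in astrocytes (SE 0.18, adjusted p 2.02e-12), 1.22 in microglia (SE 0.36, adjusted p 0.0126) and 0.94 in oligodendrocytes (SE 0.22, adjusted p 8.03e-04). Tab2, an adaptor of the kinase TAK1, made up the fourth at 0.43 in astrocytes. In TG_PS19 against PS19, 3 were higher and 6 lower, 4.62% against 5.16%. Nfkbia fell by 1.38 in astrocytes, by 1.68 in microglia and by 0.82 in oligodendrocytes, Nfkbiz fell by 1.91 in microglia, and Irak2 rose by 0.75 in astrocytes. In TG_PS19 against WT the 2 pairs called, 1.03% against 2.38%, were Nfkb2, at 1.09 in dentate granule neurons and 0.94 in other excitatory neurons. The list's median log2 fold change was 0.06, −0.05 and 0.0023, beside 0.0072, −0.01 and −0.0033 over all pairs.

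The 12 inflammasome and processing genes gave 55 pairs. In PS19 against WT 0 were higher and 1 lower, 1.82% against the 3.06% of all pairs: Aim2, a DNA sensor, fell by 0.62 in dentate granule neurons. In TG_PS19 against PS19, 3 were higher and 2 lower, 9.09% against 5.16%. Aim2 made up the 3 higher calls, among them 1.18 in other excitatory neurons (SE 0.17, adjusted p 1.76e-09) and 0.91 in dentate granule neurons (SE 0.15, adjusted p 7.12e-08). Nlrc4 fell by 1.37 in oligodendrocytes and Casp4 by 1.37 in microglia. In TG_PS19 against WT 1 pair was called, 1.82% against 2.38%, and it was Aim2 in other excitatory neurons at 0.72. The list's median log2 fold change was −0.09, 0.0014 and −0.01 in the 3 comparisons.

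Of 16 other ligands, receptors and decoys, 12 were in the feature list and 5 were tested, in 14 pairs. Il1rl2, the receptor gene for IL-36 cytokines, was higher in PS19 microglia than in WT (0.76, SE 0.24, adjusted p 0.02), the 1 call of 14 (7.14% against 3.06%). Il1r2, which encodes a decoy receptor for IL-1, rose in TG_PS19 against PS19 in dentate granule neurons (1.02, SE 0.22, adjusted p 1.24e-04) and other excitatory neurons (0.95, SE 0.28, adjusted p 0.0195), 14.3% against 5.16%. In TG_PS19 against WT 0 pairs of this list were called, and its medians were −0.40, 0.47 and 0.17. The 7 synaptic partners gave 67 pairs, with 2 higher and 1 lower in PS19 against WT, 1 and 1 in TG_PS19 against PS19 and 1 and 0 in TG_PS19 against WT. These were 4.48%, 2.99% and 1.49% of its pairs, beside 3.06%, 5.16% and 2.38% of all pairs. At so few calls none of these shares was read as apart from the background. Ptprd, a partner of IL1RAPL1, fell by 1.23 in PS19 microglia, where it stood at 77.6 and 43.7 CPM after scaling beside 139.5 CPM in WT, and was higher in TG_PS19 than in PS19 astrocytes by 0.42 and than in WT inhibitory neurons by 1.05. In the same microglia the sums of oligodendrocyte and inhibitory neuron markers given for Il1rapl1 were also lower in PS19 than in WT and cluster 15 held most PS19 nuclei, and their part in the Ptprd result was not tested. Ncs1, a calcium sensor that binds IL1RAPL1, rose in PS19 dentate granule neurons by 0.61. Ptprf was higher in PS19 than in WT oligodendrocytes by 0.50 and lower in TG_PS19 than in PS19 astrocytes, at −0.60. The medians of this list were 0.10, −0.05 and 0.09.

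With Y-linked TG_PS19 nuclei alone, 10 of the 22 calls on these 4 lists in the TG_PS19 comparisons were still past the threshold by edgeR, and all 22 had the same sign. Nfkbia in astrocytes (−2.54) and oligodendrocytes (−1.58), Irak2 in astrocytes (0.74) and Aim2 in other excitatory neurons (1.15) and dentate granule neurons (0.74) were among the 10 in TG_PS19 against PS19. The microglial calls on Nfkbia (−1.84, adjusted p 0.257), Nfkbiz (−1.20, adjusted p 0.39) and Casp4 (−0.74, adjusted p 0.588) were lost. Only 79 of 411 TG_PS19 microglia were left there. Nlrc4 in oligodendrocytes (−0.76, adjusted p 0.409), Il1r2 in other excitatory neurons (0.54, adjusted p 0.559) and Ptprf in astrocytes (−0.49, adjusted p 0.13) were also lost. In TG_PS19 against WT, Nfkb2 in other excitatory neurons (0.70, adjusted p 0.305) was lost as well. Whether sex makeup or the smaller number of nuclei lay behind these losses was not tested.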

How the data were processed

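Single-nucleus libraries were made from frozen hippocampus with 10x 3′ chemistry, per the labels' protocols, and the authors deposited UMI counts per gene and barcode, made with Cell Ranger 7.1.0 on GRCm38 per the submitters' processing notes. The annotation release and whether introns were counted are not given in the sources used here. Barcodes needed 500 UMIs, 300 genes and at most 5% mitochondrial UMIs. Doublets were scored against simulated ones and removed at 0.8% per 1000 barcodes. Nuclei were clustered on 30 components of 2000 variable genes, members left out (leidenalg 0.10.2, resolution 1; Python 3.11.15, numpy 2.4.6, scipy 1.17.1, scikit-learn 1.9.0). A cluster took a class from 18 marker lists when at least 4 markers, or 3 that made up 50% of a list, were raised. Raised markers were at least 2-fold higher and found in at least 10% of nuclei. The 10 leading genes of the cluster also had to hold no more markers of another class than of its own. Clusters of low UMI count with no marker of their class among the leading genes were to stay unnamed. Clusters with Sfta3-ps among the leading genes were left unnamed by judgement.

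Counts were summed per library and class and tested with edgeR 4.0.16 (legacy quasi-likelihood fit, TMM scaling, filterByExpr; R 4.3.3, limma 3.58.1) across all 4 libraries, with 1 residual degree of freedom. Each SE given with an edgeR result is the absolute log2 fold change divided by the square root of its F statistic. DESeq2 1.42.0 was an alternative. The fit was also run on simulated data in which all libraries varied alike. That run could not test whether the lone WT and TG_PS19 libraries vary like the PS19 pair. Total UMIs per library ran from 20064025 to 48670533. Between the 2 PS19 libraries, counts spread beyond sampling noise in every class (chi-square per degree of freedom 1.60 to 2.59), so they were not treated as one library deposited again. That spread does not tell separate animals from separate preparations of one pool. Intervals are exact Poisson at 95% and cover counting error only. Positions are from GENCODE M21 on GRCm38, in which 54349 of the feature identifiers were found.

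Members and gene lists were chosen with earlier results of these data known. Full statistics are given for each member and class pair called in any comparison, for Il33 in oligodendrocytes and astrocytes, and for each member in its highest class. Pathway genes are named by the smallest p, up to 4 called in each list and comparison. Nfkbia in oligodendrocytes for TG_PS19 against PS19, and the remark that Aim2 made up 3 calls, were added after their values were seen. The merging of excitatory clusters other than dentate granule neurons, the naming rule's handling of leading genes, the promoter motifs and 3 of the alternatives were chosen after seeing the data. Protein sequences were not used here.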

Additional observations from a re-analysis of the deposited data

Results flagged for a closer look

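The Il33 response differed between oligodendrocytes and astrocytes in both comparisons, by edgeR's test of the difference. It was 0.81 on the log2 scale in PS19 against WT (adjusted p 1.12e-06) and −1.03 in TG_PS19 against PS19 (adjusted p 7.79e-09). The Il1rapl1 response differed in the opposite sense, by −0.36 (adjusted p 0.00132) and 0.43 (adjusted p 1.03e-04). With DESeq2 none of the 4 differences was called (adjusted p 0.356 and 0.319 for Il33, 0.675 and 1.00 for Il1rapl1). Within the largest cluster of each class, the Il33 difference kept its edgeR call in TG_PS19 against PS19 but not in PS19 against WT. Both genes were compared in sums from the same 4 libraries.

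Cluster 4, which lies outside the tested classes, held Il1rap and Il1rapl1 in TG_PS19 above the level of the WT library. Il1rap stood at 659 CPM in WT, 714 and 822 CPM for the PS19 pair and 805 CPM for TG_PS19. Il1rapl1 stood at 832 CPM in WT, 727 and 835 CPM for the PS19 pair and 1043 CPM for TG_PS19. These differences were not tested.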

How the results depend on the processing

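No paired analysis was possible because only PS19 has 2 numbered libraries. The numbers of member pairs called were 0, 2 and 1 with DESeq2 for PS19 against WT, TG_PS19 against PS19 and TG_PS19 against WT, 11 in PS19 against WT with doublets kept, and 2 and 4 in the first and second comparison with the largest cluster of each class alone. The Il33 difference between oligodendrocytes and astrocytes was 0.74 and −0.98 with DESeq2, neither called, that of Il1rapl1 was −0.43 and 0.48 with DESeq2, neither called, and that of Il33 was 0.39, not called, in the largest clusters for PS19 against WT. Leaving out either PS19 library, the Il33 difference ran from 0.68 to 0.93 and from −1.15 to −0.90, with no residual degree of freedom and so no test or count of calls. The sign turned for Il1r1 in astrocytes, TG_PS19 against PS19, in cluster 1 alone (0.28), and for Il1rapl1 in fibroblasts, TG_PS19 against WT, with doublets kept (−0.57). The cause was not tested. Of the 15 calls, 15 held with library totals, with the members among the clustering genes and with cluster 4 added, 14 with relative log expression scaling, a robust prior or adjusted degrees of freedom, 13 without the low-count filter, at resolution 2 or with doublets kept, 12 with Y-linked TG_PS19 nuclei alone, 9 in the largest clusters and 2 with DESeq2. The Il33 changes in astrocytes were called with doublets kept (−0.58, adjusted p 0.00794, and 0.49, adjusted p 0.0361). Library totals moved the median of all genes by −0.17 and −0.15 in astrocytes for TG_PS19 against PS19 and against WT, and by −0.10 to −0.12 in oligodendrocytes, precursors and dentate granule neurons for TG_PS19 against WT. Low counts limit Il1b, Il1rl1 and astrocyte Il1r1, at 1 to 45 UMIs a library.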
